A study of Arabidopsis thaliana with 12 samples.

Results

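Roots of the erf114 mutant were compared with roots of the wild type Col, both kept on MS medium without hormone. The comparison took genes with an FPKM (a read level per gene length and per library size) of at least 1 in at least 3 of the 6 MS libraries, which left 17914 of the 23719 genes listed in the series. The labels give 3 root libraries of Arabidopsis thaliana of genotype erf114 on MS, 3 of genotype Col on MS, 3 of erf114 with methyl jasmonate (MeJA) for 3 h and 3 of Col with MeJA for 3 h, all from seedlings germinated for 5 days at 22 °C. For the MeJA dose the labels give both 15 µM (protocol) and 50 µM (series design). The labels describe neither the allele nor the number of lines behind erf114, and they do not say whether the replicates came from separate plates, so p-values may reflect technical spread alone. The design places ERF114 in jasmonate signalling, and the MS libraries are the untreated state of both genotypes.

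ERF114 (AT5G61890) belongs to group X of the ethylene response factors, DNA-binding proteins known in Arabidopsis roots from wounding and tissue repair together with their relatives ERF115 and ERF109 (also named RRTF1). Jasmonate is perceived by the receptor COI1, which brings about the breakdown of JAZ repressors and so frees MYC transcription factors to switch on their targets. JAZ genes are themselves induced by jasmonate, and their transcripts are a common gauge of how active the pathway is.

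The 6 MS libraries held 20546417 to 20787527 estimated counts and listed 21523 to 21845 genes. Markers of the root were present, with all 9 stem cell niche genes, all 14 root hair genes and all 14 endodermis genes passing the filter. All 12 shoot photosynthesis genes passed it too, with summed levels of 636, 1290 and 587 FPKM in erf114 and 1480, 393 and 429 FPKM in Col. Seed storage genes summed to 0.33, 81.4 and 69.2 FPKM in erf114 and 1.78, 0.46 and 0.51 FPKM in Col, so erf114 replicates 2 and 3 stood above the other 4 libraries. In a principal component analysis of the 6 libraries, the first component carried 55% of the variance and set Col replicate 1 apart at -61.9, against 0.9 to 22.4 for the others. The second carried 20.4% and set erf114 replicate 3 apart at -34.9.

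ERF114 itself was almost silent on MS in both genotypes. It had 0, 1 and 1 estimated counts in erf114 and 3, 0 and 0 in Col, a ratio of 0.623 of the group sums with an exact binomial 95% interval of 0.0521 to 5.44 (this and the other intervals on counts cover counting error only). The MS libraries therefore cannot check the mutant label at ERF114. After MeJA it had 13, 13 and 10 counts in erf114 and 59, 50 and 42 in Col, and the groups did not overlap. The erf114 sum there was 25.8% of the Col sum after scaling for library size (95% interval 17.4 to 37.4%). Where the mutation lies relative to these reads is not described in the labels.

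On MS, 6 genes differed between erf114 and Col at an adjusted p under 0.05 (edgeR quasi-likelihood test with Benjamini-Hochberg adjustment), which is 0.0335% of the 17914 genes tested. AT2G44500, which encodes an O-fucosyltransferase family protein, and NAS2, a nicotianamine synthase, were higher in erf114 (0.0112% of the genes tested). AT4G29200, annotated as a beta-galactosidase related protein, the orphan gene QQS, MRD1 and the retroposon SADHU3-2 were lower (0.0223%). All 6 had groups of libraries that did not overlap. AT4G29200 and QQS passed the filter through the Col libraries alone, so for these genes a separation in FPKM on MS was fixed by the filter. The smallest adjusted p among the other genes was 0.32.

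The remaining genes did not pass the test, and most of them had a small fitted difference. The median difference over all genes tested was 0.007 on the log2 scale, and 88.4% of them (15843) had a 95% interval of the difference inside a 1-unit change on that scale in either direction. At an unadjusted p under 0.05 there were 664 genes (3.71% of those tested), 385 higher (2.15%) and 279 lower (1.56%) in erf114. That count depended on single libraries, at 319 without erf114 replicate 3 and 1343 without Col replicate 2. Libraries did not overlap in scaled counts for 938 genes higher in erf114 (5.24%) and 794 lower (4.43%). A difference of at least 1 on the log2 scale was fitted for 72 genes, of which 66 did not pass the test.

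**Figure D1:**
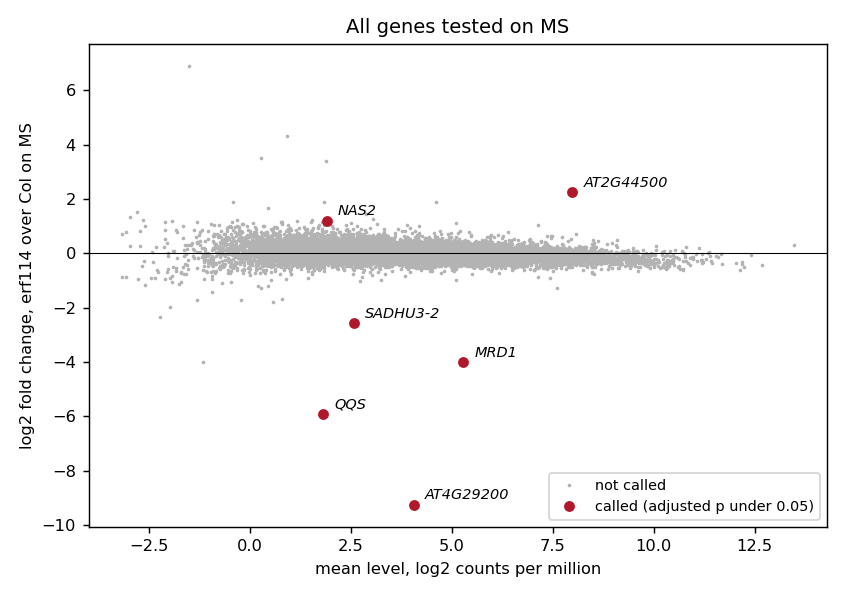
Difference between erf114 and Col on MS (vertical axis, log2 fold change) against mean level over the libraries (horizontal axis, log2 CPM) for the 17914 genes tested, with genes past the adjusted threshold in red and named. The 2 red genes above the line are AT2G44500 and NAS2, and the 4 below it are SADHU3-2, MRD1, QQS and AT4G29200.

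AT4G29200 showed the widest separation among the 6. Its level was 0, 0.14 and 0.04 FPKM in erf114 and 41.8, 39.6 and 29.4 FPKM in Col. All 3 erf114 libraries were at or next to 0, whereas every Col library was well above it. The filter fixed that the groups were apart, but not how far. The erf114 libraries together held 4 counts and the Col libraries 2477, so the erf114 sum was 0.151% of the Col sum (95% interval 0.0411 to 0.387%). The fitted difference was -9.26 ± 0.44 on the log2 scale (SE, adjusted p = 1.5e-06), a size that depends on the small count added by the fit.

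QQS (AT3G30720) is a gene known only from Arabidopsis thaliana, with no relative in other species, and is known for an effect on leaf starch and protein content. Its level was 0.38, 0.27 and 0.52 FPKM in erf114 and 22.3, 25.9 and 23.1 FPKM in Col. The libraries within each genotype lay close together, at 0.39 ± 0.125 FPKM in erf114 and 23.8 ± 1.92 FPKM in Col (SD, n = 3 each). The erf114 sum of 9 counts was 1.58% of the 531 counts in Col (95% interval 0.721 to 3.03%), and the fitted difference was -5.93 ± 0.30 (log2, SE, adjusted p = 1.5e-06).

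AT2G44500 was the more abundant of the 2 genes that were higher in erf114. Proteins of its family transfer fucose to other proteins, and this gene has no symbol in the annotation used. It stood at 203, 217 and 210 FPKM in erf114 and at 27.5, 49.8 and 48.4 FPKM in Col. The erf114 libraries were nearly equal and every one was above the highest Col library, while Col replicate 1 was the lowest of all. The difference was 2.25 ± 0.16 on the log2 scale (SE, adjusted p = 4.5e-05), and the count sums of 26989 in erf114 and 5392 in Col gave a ratio of 4.68 (95% interval 4.55 to 4.82). AT4G29200, QQS and AT2G44500 passed the test in all 17 alternative analyses, including each one that left out a library and the one with replicate number as a block in the 6 MS libraries.

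MRD1 (AT1G53480) is named for its low transcript level in the Arabidopsis mto1 mutant, which accumulates methionine. It had 0.86, 12.7 and 7.67 FPKM in erf114 and 116, 94.5 and 98.3 FPKM in Col. The erf114 libraries differed among themselves more than the Col libraries did, with erf114 replicate 1 the lowest, and all 3 were far under the Col libraries. The difference was -4.01 ± 0.57 (log2, SE, adjusted p = 0.039). In the 6 MS libraries alone the adjusted p was 0.83, and with replicate number as a block in those 6 libraries it was 0.36, at a difference of -4.22.

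SADHU3-2 (AT3G42658) belongs to the Sadhu elements, a family of Arabidopsis retroposons whose transcription is known to vary between natural accessions. It had 4.86, 3.74 and 2.82 FPKM in erf114 and 28.5, 15.8 and 15.9 FPKM in Col. All erf114 libraries were below all Col libraries, and Col replicate 1 was the highest. The difference was -2.56 ± 0.35 (log2, SE, adjusted p = 0.039). The Sadhu family has several similar copies, and how reads shared between copies were assigned is not given in the sources used here, so the level is uncertain. Left out in turn, each of the 3 erf114 libraries and Col replicate 3 took the adjusted p to between 0.051 and 0.32.

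NAS2 (AT5G56080) encodes one of the enzymes that make nicotianamine, a chelator that carries iron and other metals inside plants. It had 4.29, 6.23 and 5.79 FPKM in erf114 and 1.95, 2.56 and 2.03 FPKM in Col, so the lowest erf114 library was above the highest Col library. The means were 5.44 ± 1.02 FPKM in erf114 and 2.18 ± 0.332 FPKM in Col (SD, n = 3 each), a difference of 1.21 ± 0.17 (log2, SE, adjusted p = 0.039). In the 6 MS libraries alone the adjusted p was 0.83, and with replicate number as a block in those 6 libraries it was 0.46. NAS genes are a small family of similar sequence, so reads shared between them could shift this value.

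The calls for MRD1, NAS2 and SADHU3-2 each rested on single libraries. Without erf114 replicate 3, or without Col replicate 3, all 3 were lost and 3 calls were left. NAS2 and MRD1 were also lost without Col replicate 1 (adjusted p = 0.099 for each) and without Col replicate 2 (0.19 for NAS2 and 0.095 for MRD1), and NAS2 without erf114 replicate 2 (0.29). An exact permutation test over the 3 erf114 and 3 Col libraries gave p = 0.1 for each of the 6 genes, the smallest value that 3 against 3 libraries allow.

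**Figure D2:**
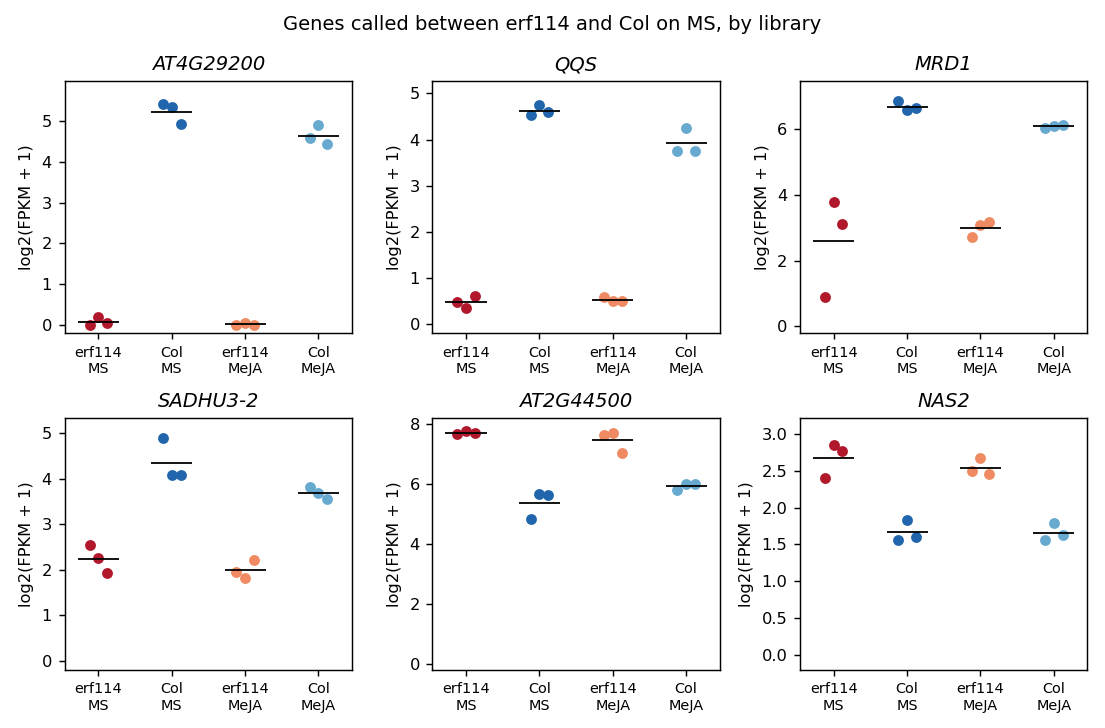
Level of each of the 6 genes in every library, as log2(FPKM + 1) on the vertical axis, for erf114 on MS, Col on MS, erf114 after MeJA and Col after MeJA, with a point per library and a line at the group mean. On MS, the erf114 and Col points do not overlap in any of the 6 panels, and the points after MeJA lie on the same sides.

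The MeJA libraries hold the same genotype contrast in 6 other libraries, whose levels do not enter the MS differences, although the spread behind both tests was estimated over all 12. All 6 genes kept their direction there, and 5 of them passed the test again, which is 83.3% of the MS calls and 7.81% of the 64 genes called between erf114 and Col after MeJA (0.357% of the genes tested). AT4G29200 had 0, 0.04 and 0 FPKM in erf114 after MeJA and 23.3, 28.9 and 20.6 FPKM in Col after MeJA, or 1 count in all against 1618 (0.067%, 95% interval 0.00169 to 0.374%). QQS had 0.49, 0.41 and 0.4 FPKM in erf114 and 12.5, 18.1 and 12.4 FPKM in Col. In both genes every erf114 library was again near 0.

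AT2G44500 after MeJA stood at 198, 210 and 130 FPKM in erf114 and 54.3, 63.7 and 63.1 FPKM in Col, a difference of 1.68 ± 0.15 (log2, SE, adjusted p = 0.00054). MRD1 had 5.65, 7.45 and 7.98 FPKM in erf114 and 64.6, 67.8 and 68.9 FPKM in Col (-3.12 ± 0.55, adjusted p = 0.036). NAS2 had 4.63, 5.36 and 4.48 FPKM in erf114 and 1.96, 2.46 and 2.09 FPKM in Col (1.28 ± 0.17, adjusted p = 0.0069). In these 3 genes the groups did not overlap after MeJA either, and the MRD1 levels of the erf114 libraries lay closer together than on MS.

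SADHU3-2 was the gene that did not pass again. It had 2.86, 2.51 and 3.6 FPKM in erf114 and 13.1, 11.8 and 10.7 FPKM in Col after MeJA, a difference of -1.84 ± 0.36 (log2, SE, adjusted p = 0.065). The libraries were again fully apart. The change of the genotype difference between media did not pass the test for any of the 6 genes (5 genes did in all, 0.0279% of those tested), with adjusted p from 0.63 to 0.91 and estimates from -0.87 ± 1.32 for AT4G29200 to 1.00 ± 0.56 for QQS (log2, SE).

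**Figure D3:**
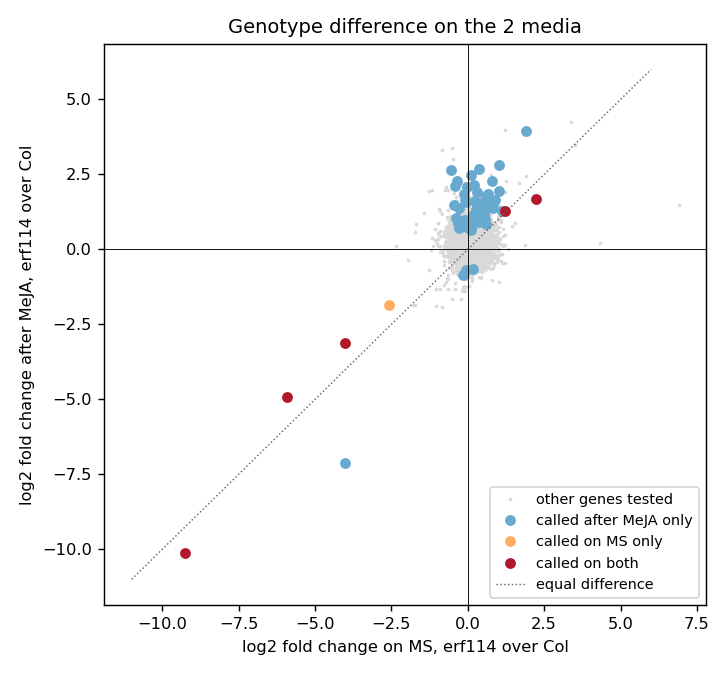
Genotype difference on MS (horizontal axis) and after MeJA (vertical axis), both as log2 fold change of erf114 over Col, for the 17914 genes tested, with genes called after MeJA only in blue, on MS only in orange and on both in red. AT4G29200, QQS, MRD1, AT2G44500 and NAS2 are the 5 red points near the dotted line of equal difference, and most blue points lie above 0 on the vertical axis and near 0 on the horizontal one.

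Of the 57 genes higher in erf114 after MeJA (0.318% of those tested), 37 had a positive difference on MS, and the median of the 57 there was 0.16 on the log2 scale, against 1.35 after MeJA. On MS, 19 of the 57 were higher at an unadjusted p under 0.05 (2.15% of all genes tested) and 21 had fully separate libraries (5.24%). Of the 7 lower ones (0.0391%), 6 had a negative difference on MS. Across all genes tested, 39.4% had the same sign on both media, and among the 664 genes at an unadjusted p under 0.05 on MS it was 59.8% (397). Of the 938 genes whose erf114 libraries were all higher on MS, 115 (12.3%) were also fully higher after MeJA and 32 (3.41%) fully lower, where 7.55% of all genes tested were fully higher and 8.13% fully lower. Of the 794 that were all lower on MS, 84 (10.6%) were also fully lower after MeJA and 28 (3.53%) fully higher.

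The 6 genes did not sit beside other genes that passed the test. In the gene order of TAIR10.1, none of the tested genes within 2 places of any of them was called on MS. The closest was HEI10, a gene of meiotic crossing over that lies next to MRD1, with a mean of 1.8 FPKM in erf114 and 2.47 FPKM in Col and a difference of -0.77 ± 0.23 (log2, SE, adjusted p = 0.85). After MeJA it was -1.18 ± 0.24 (adjusted p = 0.077). The genes around ERF114 had log2 differences of -0.07 for BON1, -0.04 for AT5G61910 and 0.00 for AT5G61880.

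No difference was detectable for ERF115, RRTF1 and JAZ8, the other genes in the series title. ERF115 had 0, 1 and 1 counts in erf114 and 2, 0 and 0 in Col and was not tested. RRTF1 had 18.7, 27.9 and 155 FPKM in erf114 and 51.3, 15.6 and 46.1 FPKM in Col, and JAZ8 had 5.04, 10.2 and 47.9 FPKM in erf114 and 28.4, 4.49 and 11.7 FPKM in Col. For both, erf114 replicate 3 was the highest library and the groups overlapped. The differences were 0.66 ± 0.75 for RRTF1 and 0.28 ± 0.83 for JAZ8 (log2, SE, adjusted p = 0.86 and 0.94), with a 95% interval of -1.53 to 2.08 for JAZ8, and without erf114 replicate 3 they were -0.88 and -1.21.

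Gene lists were read by their counts. Of 534 genes in 46 lists of pathways and cell types, 473 were tested and 1, NAS2, was called, so 45 lists held no called gene. At an unadjusted p under 0.05, 34 list genes were higher and 17 lower in erf114, where 2.15% and 1.56% of all genes tested were. List members were chosen with earlier results of these data known. An excess over the share of all genes, here or for a single list below, may therefore come from that choice. List medians ran from -0.58 to 0.31 on the log2 scale, against 0.007 over all genes tested.

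The 13 JAZ repressor genes, of which all 13 were tested, had a median difference of 0.20 on the log2 scale and none reached an unadjusted p under 0.05. The smallest p-values were those of JAZ5, JAZ12 and JAZ1. JAZ1 had 90.3, 87.2 and 246 FPKM in erf114 and 71.6, 97.2 and 108 FPKM in Col, a difference of 0.52 ± 0.31 (log2, SE, adjusted p = 0.85). JAZ5 had 3.49, 3.46 and 9.93 FPKM in erf114 and 3.09, 3.03 and 3.48 FPKM in Col. Both were high in erf114 replicate 3 alone. JAZ12 had 62.5, 62.9 and 63.1 FPKM in erf114 and 45, 55.8 and 57.3 FPKM in Col, so its groups did not overlap, at a difference of 0.15 ± 0.09 (adjusted p = 0.85).

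Of 11 tested biosynthesis genes none reached an unadjusted p under 0.05, and their median was 0.00 on the log2 scale. None of the 9 tested genes of jasmonate perception and the MYC and JAM factors did either, with a median of 0.18. Among 7 tested catabolism genes, ST2A, a sulfotransferase of hydroxyjasmonate, was at 10.6, 9.77 and 9.78 FPKM in erf114 and 6.36, 8.78 and 7.7 FPKM in Col, with a difference of 0.30 ± 0.12 (log2, SE, unadjusted p = 0.025, adjusted p = 0.85). VSP1, a storage protein gene commonly used as a marker of the MYC branch, had 12.5, 8.32 and 9.72 FPKM in erf114 and 7.24, 7.02 and 6.36 FPKM in Col (0.45 ± 0.18, unadjusted p = 0.029, adjusted p = 0.85). Among the 4 tested genes of the MYC-branch list, 3 had a positive difference and the median was 0.31 on the log2 scale. None of the 4 had fully separate libraries in scaled counts, although the VSP1 libraries were apart in FPKM. Mean levels of the JAZ genes were highest in erf114 replicate 3 (5.04 log2 CPM, library-scaled counts) and Col replicate 1 (4.55), against 3.43 to 3.74 in the other 4 libraries. The list of rapid touch and stress genes was likewise highest in erf114 replicate 3 (6.48), and its part in the jasmonate values was not tested.

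**Figure D4:**
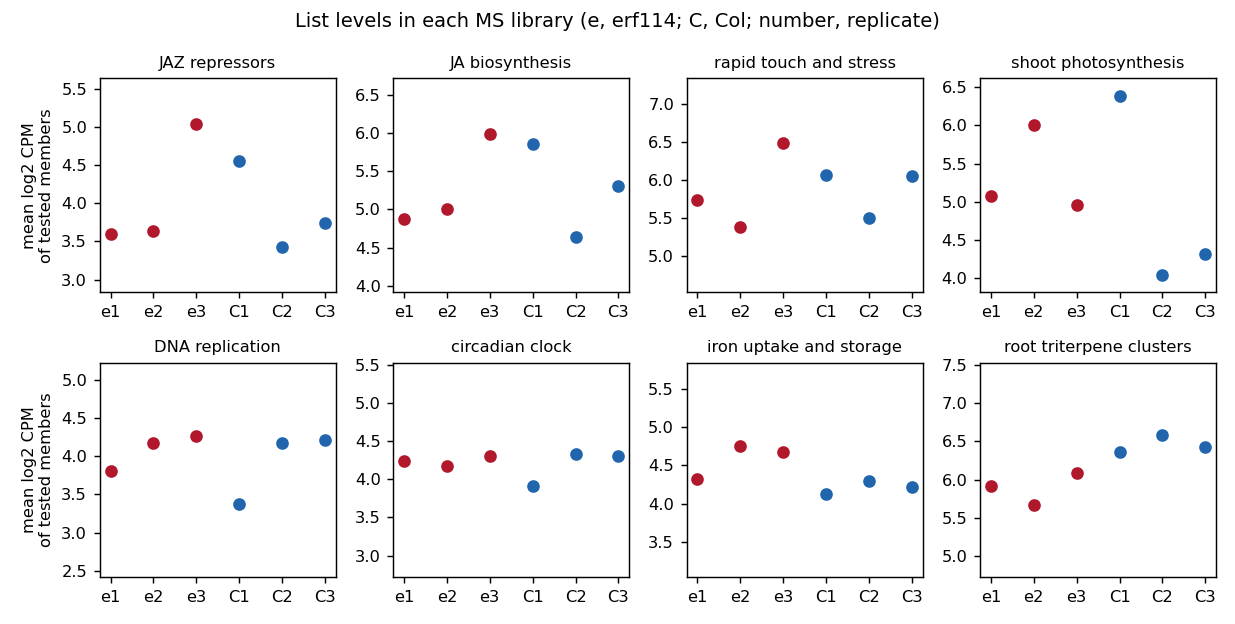
Mean level of the tested members of 8 gene lists (vertical axis, mean log2 CPM) in each MS library, with erf114 replicates 1 to 3 in red and Col replicates 1 to 3 in blue, and panels spanning the same range. The JAZ and jasmonate synthesis lists are highest in erf114 replicate 3 and Col replicate 1, while iron genes lie higher and root triterpene genes lower in all erf114 libraries than in all Col libraries.

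Iron genes were the list with the most members at an unadjusted p under 0.05 on 1 side. Of 25 tested members of the iron uptake and storage list, 1 was called (NAS2), 10 reached an unadjusted p under 0.05, all of them higher in erf114 (2.15% of all genes tested were), and the median difference was 0.21 on the log2 scale. The mean level of the list was 4.32, 4.75 and 4.68 log2 CPM in erf114 and 4.13, 4.29 and 4.22 log2 CPM in Col, so the groups were apart by a small margin. CYP82C4, a cytochrome P450 of coumarin synthesis, had 5.52, 11 and 11.5 FPKM in erf114 and 2.83, 4.05 and 6.15 FPKM in Col (1.01 ± 0.27, unadjusted p = 0.0026, adjusted p = 0.85). MYB10, a transcription factor of the iron deficiency response, had 6.22, 9.76 and 8.22 FPKM in erf114 and 1.82, 6.29 and 3.78 FPKM in Col (0.97 ± 0.30, unadjusted p = 0.0070, adjusted p = 0.85). In both genes the lowest erf114 library was under the highest Col library in FPKM, although the MYB10 libraries were apart after scaling for library composition.

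The transporter and the reductase of root iron uptake, named after their values were seen, overlapped between genotypes. IRT1, the main iron transporter, had 96.3, 188 and 194 FPKM in erf114 and 65.4, 95.5 and 125 FPKM in Col (0.65 ± 0.25, adjusted p = 0.85). FRO2, the ferric reductase, had 23.8, 44.7 and 47.5 FPKM in erf114 and 12.2, 23.4 and 29.4 FPKM in Col (0.76 ± 0.27, adjusted p = 0.85). In both, erf114 replicate 1 was about level with Col replicate 2 and below Col replicate 3 in FPKM. After MeJA the median of the iron list was 0.15 on the log2 scale and NAS2 was again the 1 member called.

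Low-oxygen genes are switched on in plants when respiration runs short of oxygen. Of 12 tested fermentation and sucrose synthase genes, 2 reached an unadjusted p under 0.05 and were higher in erf114 (2.15% of all genes tested were). PDC1, pyruvate decarboxylase, had 15.5, 14 and 20.3 FPKM in erf114 and 8.6, 8.83 and 8.9 FPKM in Col (0.80 ± 0.19, unadjusted p = 0.0011, adjusted p = 0.85). HB1, a haemoglobin, had 67.5, 70.5 and 88.2 FPKM in erf114 and 38.6, 39.8 and 39.2 FPKM in Col (0.82 ± 0.21, unadjusted p = 0.0022, adjusted p = 0.85). Groups did not overlap in either gene, and the Col libraries were nearly equal in FPKM. The deposited FPKM carry no scaling for library composition, for which the factors of Col replicates 1, 2 and 3 were 0.8764, 1.1377 and 1.0858. ADH1, alcohol dehydrogenase, had 305, 247 and 387 FPKM in erf114 and 134, 265 and 150 FPKM in Col, with overlap at Col replicate 2.

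The 13 tested genes of oxygen sensing had a median difference of -0.04 on the log2 scale, and 6 of them had a positive difference. At an unadjusted p under 0.05, 1 of the 13 was higher (2.15% of all genes tested were) and none was lower. That gene, PCO1, a cysteine oxidase that reads oxygen, had 8.06, 8.8 and 12 FPKM in erf114 and 4.01, 5.35 and 5.18 FPKM in Col (0.88 ± 0.28, unadjusted p = 0.0081, adjusted p = 0.85). HRA1, an attenuator of the response, had 0.9, 1.94 and 8.14 FPKM in erf114 and 2.05, 0.76 and 1.28 FPKM in Col, and was high in erf114 replicate 3 alone. Of 30 tested other core low-oxygen genes, 8 were higher and 1 lower at an unadjusted p under 0.05 (2.15% and 1.56% of all genes tested), with a median of 0.13 on the log2 scale. ACO1, an enzyme of ethylene synthesis, had 27.7, 25 and 26.5 FPKM in erf114 and 14.4, 22.2 and 15.3 FPKM in Col (0.51 ± 0.14, adjusted p = 0.85). PDC1, HB1, PCO1 and ACO1 did pass the test after MeJA, with differences of 2.27, 1.58, 1.66 and 1.00 (log2, adjusted p = 0.00032, 0.0086, 0.026 and 0.011), whereas none passed on MS and the change between media was not called for them.

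Root triterpene clusters were the list with the lowest median. Most of them are neighbouring genes that make thalianol and marneral, triterpenes of Arabidopsis roots. Of 7 tested members, 5 were lower in erf114 at an unadjusted p under 0.05 (1.56% of all genes tested were) and the median difference was -0.58 on the log2 scale. The mean level of the list was 5.91, 5.67 and 6.09 log2 CPM in erf114 and 6.36, 6.58 and 6.42 log2 CPM in Col. MRN1, marneral synthase, had 7, 3.63 and 7.15 FPKM in erf114 and 13.2, 13 and 12.9 FPKM in Col (-1.26 ± 0.25, unadjusted p = 0.00027, adjusted p = 0.37), and DESeq2, which called 0.0782% of the genes tested, gave it an adjusted p of 0.0020. THAH, thalianol hydroxylase, had 85.9, 83.2 and 99.5 FPKM in erf114 and 94.1, 171 and 115 FPKM in Col (-0.58 ± 0.15, adjusted p = 0.85). In MRN1 the groups were clearly apart, while in THAH the highest erf114 library was above Col replicate 1 in FPKM. After scaling for library composition, 5 of the 7 tested members had all erf114 libraries below all Col libraries. After MeJA the list had a median of -0.15 and no member was called.

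Of the lists of other functions only some are described here, and none held a called gene. In the sulfate list, 3 of 12 tested genes were lower in erf114 at an unadjusted p under 0.05 (1.56% of all genes tested were) and none was higher. The median of that list was -0.02 on the log2 scale and its lowest difference -1.21. ARGOS, which lowers ethylene sensitivity, had 5.41, 4.93 and 5.76 FPKM in erf114 and 2.76, 3.47 and 3.12 FPKM in Col (0.68 ± 0.17, unadjusted p = 0.0016, adjusted p = 0.85). RSL4, a transcription factor of root hair growth, had 9.67, 8.67 and 11.2 FPKM in erf114 and 4.44, 7.54 and 5.87 FPKM in Col (0.64 ± 0.20, unadjusted p = 0.0077, adjusted p = 0.85), while GL2, which represses hair fate, had 7.64, 7.44 and 6.63 FPKM in erf114 and 8.04, 7.97 and 9.08 FPKM in Col (-0.34 ± 0.14, unadjusted p = 0.030, adjusted p = 0.85). ARGOS, RSL4 and GL2 had groups that did not overlap in FPKM. ARGOS is from the list of ethylene receptors and feedback, where 5 of 13 tested genes had a positive difference and the median was -0.11 on the log2 scale. At an unadjusted p under 0.05, 1 gene of that list was higher and none was lower (2.15% and 1.56% of all genes tested). RSL4 and GL2 are from the root hair list, where 6 of 14 tested genes had a positive difference. In that list, 1 gene was higher and 1 lower at an unadjusted p under 0.05 (2.15% and 1.56% of all genes tested). The endodermal wall gene CASP5 had 36.7, 46.2 and 45.9 FPKM in erf114 and 42.5, 51.5 and 60.2 FPKM in Col (-0.36 ± 0.11, adjusted p = 0.85), with overlap in FPKM. In the endodermis list, 5 of 14 tested genes had a positive difference. At an unadjusted p under 0.05, 2 of the 14 were lower (1.56% of all genes tested were) and none was higher. The medians of the root hair and endodermis lists were -0.14 and -0.17 on the log2 scale. None of the 16 indole glucosinolate genes tested reached an unadjusted p under 0.05, and each had a 95% interval inside a 1-unit log2 change.

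**Figure D5:**
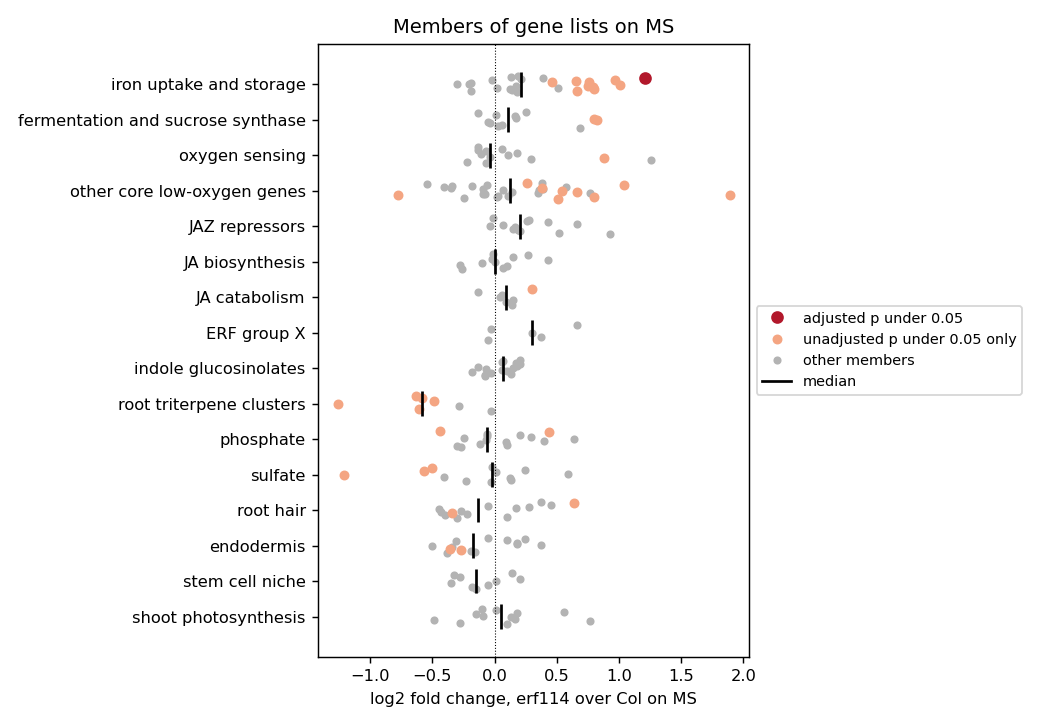
Difference between erf114 and Col on MS (horizontal axis, log2 fold change) for each tested member of 16 gene lists, with members at an adjusted p under 0.05 in dark red, members at an unadjusted p under 0.05 only in light red, the others in grey and the list median as a bar. NAS2, in the iron list at 1.21, is the single dark red point, and the triterpene list has the lowest median at -0.58.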

How the data were processed

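Root RNA of erf114 and Col was sequenced on MS and after MeJA, in 3 libraries per group. Groups and replicate numbers are from the sample labels. Per the file headers, the authors deposited for each library and gene a read count, TPM and FPKM. Between 1.542 and 1.718% of the deposited counts in a library were not whole, which is why they are called estimated counts here; they were rounded to whole values. The authors' TPM values (transcript levels on a common scale) served only to find the smallest value listed, 0.01. The deposited FPKM values gave the filter, the levels and the tests on a log scale. A gene missing from a library's table was set to 0. How reads were aligned and counted, and on which build, is not given in the sources used here, so no coordinates or sequences are shown and a planned search of promoters for motifs was not run. All 23719 gene identifiers matched TAIR10.1 of RefSeq, which gave names, products and gene order. No column of another sample was present.

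R 4.3.3 and edgeR 4.0.16 fitted TMM-scaled counts with a mean for each of the 4 groups over all 12 libraries (8 residual degrees of freedom, biological coefficient of variation 17.7%). The quasi-likelihood test was adjusted by Benjamini-Hochberg over the 17914 genes at 0.05. Standard errors were derived from the test statistic, and 95% intervals from them are approximate. Intervals on counts are exact conditional binomial ones. The steps were tested on simulated data. Alternatives used limma 3.58.1, DESeq2 1.42.0, other filters, scalings and pseudocounts (1 and 0.1), the 6 MS libraries alone, a replicate block and left-out libraries.

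Total counts were 20546417 to 20897031 per library. At this depth and spread the median standard error was 0.18 on the log2 scale. No replicate pair matched within sampling noise (chi-square per gene 6.9 to 59). Deviations of the MS libraries from group means correlated across genes at 0.283, 0.218 and 0.311 for the same replicate number. For different numbers they correlated at -0.284 to -0.004. Deviations within a group cancel out, so the negative values follow in part from the positive ones. What a number stands for is not in the labels, and across-gene correlations rest on genes that are not independent.

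The text names the called genes with a mean of at least 2 FPKM on the higher side and fully separated libraries, the 4 genes ERF114, ERF115, RRTF1 and JAZ8, and called list members. For lists with at most 2 called members, the rule also gave up to 3 members with the smallest p. Of these the text names only some, and for many lists none. Named after seeing their values, outside this rule, were IRT1, FRO2, the neighbouring genes and most genes of the closing section. The comparison, the lists and the named genes were chosen with earlier results of these data known.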

Additional observations from a re-analysis of the deposited data

Results flagged for a closer look

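The genotype difference changed between media for 5 genes by the interaction term of the edgeR fit (0.0279% of the genes tested, adjusted p = 0.02 each), and in all 5 the erf114 libraries were the higher ones after MeJA but not on MS. ETR2, an ethylene receptor, had 6.43, 7.04 and 4.41 FPKM in erf114 on MS and 6.63, 8.36 and 7.08 FPKM in Col on MS. After MeJA it had 15.3, 13.8 and 19.4 FPKM in erf114 and 4.15, 4.62 and 3.55 FPKM in Col. Its groups overlapped in FPKM on MS, where all erf114 libraries were below all Col libraries in scaled counts, and were far apart after MeJA, and the difference after MeJA exceeded that on MS by 2.53 ± 0.30 (log2, SE).

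SAD6, a fatty acid desaturase of the low-oxygen list, had the largest such change among the 5, at 3.17 ± 0.37 (log2, SE). It had 8.92, 6.1 and 8.25 FPKM in erf114 on MS and 12.3, 7.99 and 10.4 FPKM in Col on MS. After MeJA it had 38.8, 31 and 38.4 FPKM in erf114 and 7.65, 5.8 and 5.68 FPKM in Col. ELIP1, an early light-induced protein, changed by 2.65 ± 0.34, with a difference of -0.36 ± 0.24 on MS and 2.29 ± 0.24 after MeJA. AT2G39980, an acyltransferase family gene, changed by 2.38 ± 0.30, with differences of 0.11 ± 0.21 on MS and 2.49 ± 0.21 after MeJA. AT1G77330, an oxygenase family gene, changed by 1.02 ± 0.13, with 157, 162 and 155 FPKM in erf114 on MS and 162, 193 and 187 FPKM in Col on MS, and a difference of 0.72 ± 0.09 after MeJA. None of the 5 passed the test on MS, where the adjusted p was 0.85 to 0.9.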

How the results depend on the processing

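The 6 calls on MS (2 higher, 4 lower in erf114) remained 6 without a filter, with the filter over 12 libraries and with median-of-ratios scaling, and 5 at a mean of at least 5 FPKM. DESeq2 called 14 (7 higher, 7 lower), among them all 6, and 10 of its calls passed again after MeJA. limma called 8 on log2(FPKM + 1) (4 higher, 4 lower), 7 on log2(FPKM + 0.1) (4 higher, 3 lower) and 8 after quantile normalisation (3 higher, 5 lower); on unscaled FPKM the median over all genes was 0.108 and 0.125 on the log2 scale, against 0.007. With the 6 MS libraries alone 3 were called, and with the replicate block in those 6 libraries 4 (1 higher, 3 lower), all among the 6, without MRD1 and NAS2. At an unadjusted p under 0.05 there were 664 genes, against 549 in the 6 libraries alone, 1245 with the block there and 319 to 1343 with 1 library left out. Leaving out 1 library gave 3 to 6 calls, and leaving out both Col replicate 1 and erf114 replicate 3 gave 3. The cause of these differences was not tested.

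The alternatives were followed for 52 genes, among them a few that the text does not name. Over these 52 genes and 17 alternatives, 824 values kept direction and side of the threshold, 22 lost a call, 12 gained one and 12 turned direction. The lost calls were those of MRD1, NAS2 and SADHU3-2, also with the 6 MS libraries alone (adjusted p = 0.83, 0.83 and 0.59) and for MRD1 on log2(FPKM + 0.1) (0.11). The turned ones had no call. Over single libraries left out, log2 differences ran from -0.88 to 1.11 for RRTF1, -1.21 to 1.39 for JAZ8, -0.11 to 1.84 for HRA1, -0.05 to 0.93 for JAZ5, -0.16 to 0.78 for JAZ1, -0.05 to 0.49 for RAP2.6 and -0.05 to 0.30 for AT2G39980. All but AT2G39980 were below 0 without erf114 replicate 3. Without that library and Col replicate 1 the difference was -0.42 for RRTF1, -0.09 for JAZ8 and -0.20 for JAZ1. Without Col replicate 2 it was -0.20 for JAZ8 and -0.05 for AT2G39980, which was -0.01 after quantile normalisation.

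At this depth and spread the 95% interval lay inside a 1-unit log2 change for 88.4% of the genes tested, and a difference of that size is not bounded for the others. The allele and the origin of the replicates are not described, and the calls for MRD1, NAS2 and SADHU3-2 depended on single libraries.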

Other observations

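Some large fitted differences on MS did not pass the test. Past 3 on the log2 scale there were 5 such genes, named after their values were seen, each at an adjusted p of 0.85. AT3G05730, a defensin-like gene, had 3.14, 5.35 and 5.35 FPKM in erf114 and 0.48, 0.04 and 0.09 FPKM in Col. AT2G47780, a rubber elongation factor family gene, had 6.36, 5.76 and 4.07 FPKM in erf114 and 1, 0.08 and 0.16 FPKM in Col. In both, all erf114 libraries were above all Col libraries on MS, but after MeJA the groups overlapped. AT3G05730 passed the filter through its erf114 libraries on MS alone, so its separation there was fixed by the filter. The filter did not act on the MeJA libraries, so the contrast between media for this gene cannot be read from the separation.

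AT3G16660, a pollen Ole e 1 and extensin family gene, had 19, 15 and 15 counts in erf114 on MS and 0 in each Col library. After MeJA it had 11, 0 and 0 in erf114 and 0, 0 and 4 in Col. Like AT3G05730, it passed the filter through its erf114 libraries on MS alone. AT1G27565, an uncharacterized gene, had 0, 0 and 2 counts in erf114 on MS and 13, 17 and 6 in Col. This gene passed the filter through its Col libraries on MS alone. It was at 0 in all 3 erf114 libraries after MeJA and at 18, 22 and 10 counts in Col, where it passed the test (adjusted p = 0.042). RAB18, a dehydrin induced by abscisic acid and abundant in seeds, had 0.69, 11.4 and 12.1 FPKM in erf114 on MS and 0.48, 1.26 and 0.44 FPKM in Col. Its 2 high libraries were erf114 replicates 2 and 3, the same that held seed storage transcripts (81.4 and 69.2 FPKM summed), and their part in the RAB18 value was not tested. After MeJA, RAB18 had 14.2, 5.84 and 8.05 FPKM in erf114 and 0.44, 0.81 and 0.42 FPKM in Col, at an adjusted p of 0.077.

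DESeq2 called 8 genes on MS beside the 6, and limma also called AT5G33355 on log2(FPKM + 1) and after quantile normalisation (adjusted p = 0.048 and 0.040). UBC29, UMAMIT33, AT5G59540, AT5G33355 and AT5G40590 were higher in erf114 by it, and CBL8, MRN1 and SQD2 lower. Of these, AT5G33355, a defensin-like gene, and AT5G40590, of a C1 domain family, also passed the edgeR test after MeJA, with differences of 1.37 ± 0.16 and 1.27 ± 0.19 (log2, SE, adjusted p = 0.0028 and 0.012). On MS edgeR gave them 0.84 ± 0.16 and 1.11 ± 0.21 (adjusted p = 0.32 each).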
